A study of Mus musculus with 2 samples.

Results

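The Hox9, Hox12 and Hox13 genes were followed in open chromatin of the mouse embryonic kidney. The 10 genes were Hoxa9, Hoxb9, Hoxc9, Hoxd9, Hoxc12, Hoxd12, Hoxa13, Hoxb13, Hoxc13 and Hoxd13, chosen by name from the 55450 genes of the GENCODE M21 annotation of the mm10 genome. A peak, a stretch of open chromatin called by the authors, was assigned to a gene when it overlapped the gene body or the 2 kb upstream. By this rule 18 of 159560 peaks in the Enl-WT library and 15 of 130027 in the Enl-T1 library belonged to them. Overlapping peaks of the libraries were joined into regions, which added 2 Enl-T1 peaks upstream of Hoxa9 that lie outside the 2 kb but under a wider Enl-WT peak. Of the 21 regions so defined, 12 held peaks of both libraries (shared regions), and 9 held a peak of 1 library.

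Hox genes encode homeodomain transcription factors that are arranged in clusters in the genome and tell cells where they lie along the body axis. Genes near the 5′ end of a cluster, such as those of the Hox9 to Hox13 groups, act in the posterior trunk, limbs and urogenital tract. In the kidney, Hox9, Hox10 and Hox11 genes act in the progenitors and the stroma, while Hox13 genes are known for the limb tips, hindgut and lower urogenital tract. Polycomb complexes keep Hox genes silent outside their domain. ENL, the product of Mllt1, is a chromatin reader that binds acetylated histones and works with complexes that promote transcriptional elongation.

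Single-nucleus ATAC-seq counts the cuts that a transposase makes in the open chromatin of each nucleus, and it was applied to E15.5 kidneys. Enl-WT kidneys had 2 normal Enl alleles, and Enl-T1 kidneys had 1 floxed T1 allele, which carries a small in-frame insertion found in Wilms tumour, and 1 normal allele. Both groups were heterozygous for Wt1-GFPCre, a knock-in that replaces 1 Wt1 allele, so controls and mutants alike had 1 working Wt1 allele. This Cre acts in the nephron and stromal lineages and not in ureteric epithelium or endothelium, which keep the unrecombined allele. There was 1 library per group, and the sources used here do not give the number of embryos in each. No test between the groups is therefore possible. Every 95% interval below covers counting error only and says nothing of differences between animals.

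After barcodes with 2000 to 100000 counts were kept, Enl-WT had 9472 nuclei with a median of 14789.5 counts and Enl-T1 had 12635 with a median of 8753. Of the kept barcode strings, 149 occurred in both libraries. Open chromatin does not show the Enl insertion, so the genotype could not be checked. Nuclei were clustered without the Hox clusters and named from marker genes. The nephron progenitor-like class held 2173 Enl-WT and 4085 Enl-T1 nuclei, and the stroma-like class 2964 and 4808.

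The progenitor-like class came from different clusters in the libraries. Clusters 4 and 10 held 1273 and 899 of its Enl-WT nuclei but 90 and 31 of its Enl-T1 nuclei, while clusters 0 and 6 held 2715 and 1249 Enl-T1 nuclei and 1 and 0 Enl-WT nuclei. Of 8 progenitor markers, 4 were raised in cluster 0, 7 in cluster 4, 5 in cluster 6 and 5 in cluster 10, and none was among the top 10 genes of these clusters. The mean marker score, a log2 level against the median cluster, was 0.51 in cluster 0, against 0.37 for neural crest or neuron markers. It was 1.11, 0.83 and 0.70 in clusters 4, 6 and 10, against 0.28, 0.39 and 0.43. Naming asked for a lead of 0.1 over other lineages, and an alternative lead of 0.2 leaves cluster 0 unnamed. A cluster mostly of 1 library may show that library and not a cell type. Each progenitor-like ratio below therefore compares clusters as well as genotypes, which cannot be told apart. The early nephron epithelium-like class, a step beyond the progenitors, was a single cluster with 401 Enl-WT and 164 Enl-T1 nuclei. Ureteric or smooth muscle stroma-like nuclei numbered 30 in Enl-WT but 625 in Enl-T1, proximal tubule-like nuclei 666 but 14, and podocyte-like nuclei 342 but 0. The endothelial-like class of 954 and 971 nuclei included cluster 16, with 189 Enl-WT and 365 Enl-T1 nuclei at median depths of 4592 and 3117 counts. The endothelial score of cluster 16 was 0.89, against 0.78 for proximal tubule markers.

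The peaks of the genes fell into 3 patterns, which the map of peaks about the start sites shows. Hoxa9, Hoxd9, Hoxa13 and Hoxb13 had peaks at the same places in both libraries. Hoxb9, Hoxc9, Hoxd12 and Hoxc13 had shared regions and also regions with a peak in 1 library. Hoxc12 and Hoxd13 had 1 peak each, both in Enl-WT. A peak lay over the annotated start of 8 genes for Enl-WT and of 7 for Enl-T1, of which 6 were the same. The start of Hoxc9 and of Hoxd13 lay under a peak in Enl-WT, that of Hoxd12 under a peak in Enl-T1, and that of Hoxc12 under none.

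**Figure D1:**
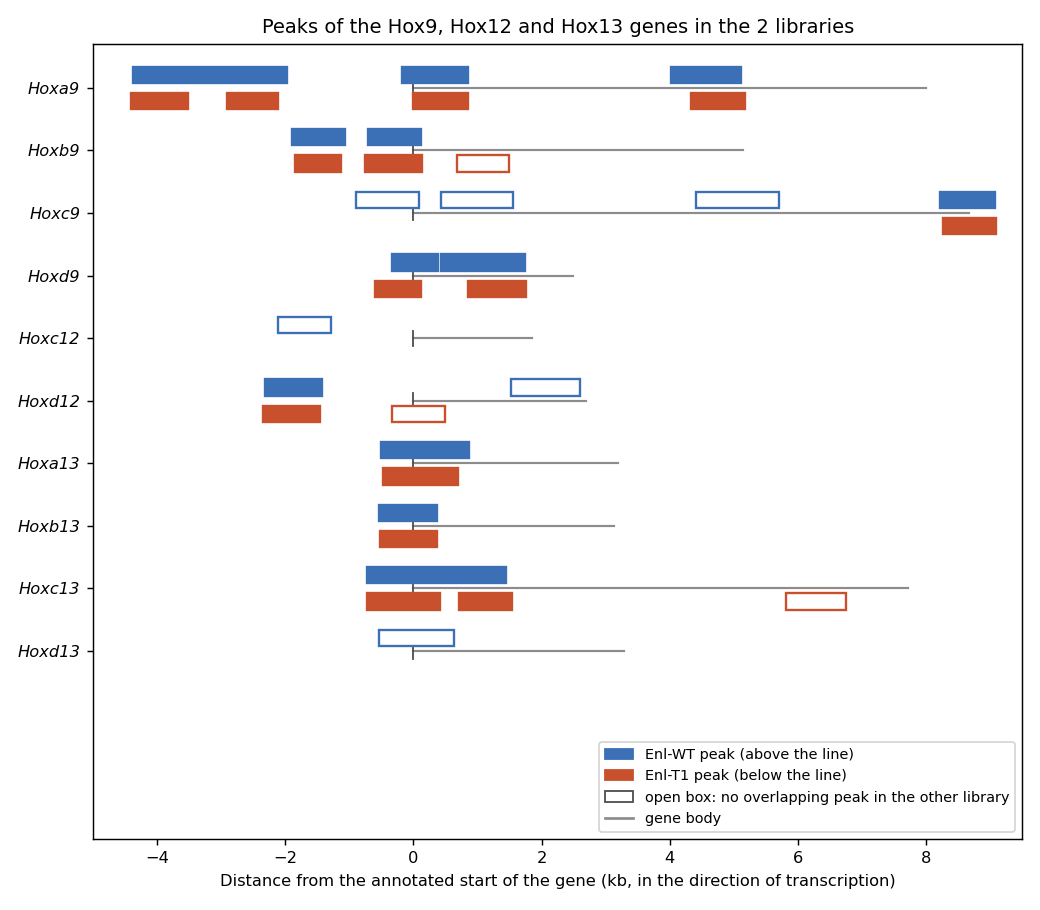
Peaks of the 10 genes by distance from the annotated start (x axis, kb in the direction of transcription), Enl-WT above and Enl-T1 below each gene body. Filled boxes overlap a peak of the other library and open boxes do not: there are 6 open boxes for Enl-WT and 3 for Enl-T1.

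The regions were rich in C and G. In windows of 500 bases at the centre of each of the 21 regions, the median GC content was 58.6% and the median CpG ratio, observed over expected from base content, was 0.69. Over all shared regions these medians were 48.8% and 0.26, and over the 104 shared regions in and around the 4 Hox clusters 54.6% and 0.56. The start-site regions of Hoxa13 and Hoxd13 had the most GC, 77.0% and 75.0%, with CpG ratios of 1.00 and 1.02. CpG-dense start sites of this kind are typical of developmental genes under Polycomb control.

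The following 250 bases end just before the annotated start of 3 genes, read on the strand of the gene from GRCm38. Hoxa13 and Hoxd9 are shown because their ratios between libraries in progenitor-like nuclei were the highest and the lowest among genes whose start lies in a shared region. Hoxd12, whose start lay under a peak in Enl-T1, was added after its values were seen. Capitals mark each CpG.
Hoxa13, chr6:52260881-52261130, minus strand: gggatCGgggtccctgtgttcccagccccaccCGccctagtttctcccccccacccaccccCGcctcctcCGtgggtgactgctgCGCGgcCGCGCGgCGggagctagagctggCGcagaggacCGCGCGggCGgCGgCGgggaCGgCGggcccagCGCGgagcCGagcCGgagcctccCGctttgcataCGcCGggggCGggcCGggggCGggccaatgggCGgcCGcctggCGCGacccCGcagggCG
Hoxd9, chr2:74697477-74697726, plus strand: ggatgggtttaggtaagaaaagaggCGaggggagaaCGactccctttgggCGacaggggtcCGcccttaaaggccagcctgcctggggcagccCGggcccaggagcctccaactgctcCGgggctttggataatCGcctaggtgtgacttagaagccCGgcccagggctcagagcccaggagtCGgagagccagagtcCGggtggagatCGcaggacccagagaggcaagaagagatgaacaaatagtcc
Hoxd12, chr2:74674763-74675012, plus strand: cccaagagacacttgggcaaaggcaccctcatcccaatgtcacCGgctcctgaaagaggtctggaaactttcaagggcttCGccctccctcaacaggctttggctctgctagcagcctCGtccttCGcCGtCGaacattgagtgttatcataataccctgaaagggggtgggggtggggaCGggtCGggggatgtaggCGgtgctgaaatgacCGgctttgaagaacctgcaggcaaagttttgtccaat
The Hoxa13 stretch held 35 CpGs at 80% GC, against 11 at 61.6% for Hoxd9 and 10 at 55.6% for Hoxd12. The Hoxd9 stretch also overlaps an exon of the noncoding gene Gm28793, and no other gene was recorded for the rest.

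A further 300 bases are shown from the centres of the shared regions away from start sites with the highest and the lowest ratio in progenitor-like nuclei, on the plus strand of GRCm38. In the first the capitals mark a match, read on the minus strand, to CCNNNAGNNGGC, the core of the CTCF binding motif. In the second they mark CpGs, since no searched motif matched.
Upstream of Hoxd12, chr2:74672977-74673276: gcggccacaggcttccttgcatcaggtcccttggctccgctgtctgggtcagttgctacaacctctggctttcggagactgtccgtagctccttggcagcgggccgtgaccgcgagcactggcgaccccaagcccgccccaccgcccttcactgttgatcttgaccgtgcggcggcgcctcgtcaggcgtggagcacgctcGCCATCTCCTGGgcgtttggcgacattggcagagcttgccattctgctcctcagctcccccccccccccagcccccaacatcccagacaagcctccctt
Within Hoxd9, chr2:74698669-74698968: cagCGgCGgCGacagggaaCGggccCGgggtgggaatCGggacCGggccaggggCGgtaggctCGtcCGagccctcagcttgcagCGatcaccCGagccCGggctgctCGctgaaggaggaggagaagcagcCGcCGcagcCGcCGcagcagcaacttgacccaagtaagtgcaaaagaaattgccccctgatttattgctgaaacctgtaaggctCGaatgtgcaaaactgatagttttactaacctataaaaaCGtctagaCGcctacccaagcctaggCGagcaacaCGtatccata
The Hoxd9 stretch runs from the first exon into the intron and held 23 CpGs. CTCF binds boundaries inside Hox clusters in many tissues. Over the 500-base windows on both strands, CCNNNAGNNGGC matched in 4 of the 21 regions (19.0%), against 16.7% of all shared regions. The 4 were the upstream and the Enl-WT exon region of Hoxd12 and the start-site regions of Hoxa9 and Hoxc13. TTTATGG, a sequence that Hox9 and Hox10 proteins bind, matched in 2 of 21 (9.52%) against 8.62%, and CCAATAAA, which Hox13 proteins bind, in 0 of 21 against 2.11%. No 250-base stretch upstream of the 10 genes matched any of the 3 motifs, which matched in 7.77%, 2.20% and 0.948% of the stretches upstream of protein-coding genes. No window held matches to more than 1 of the motifs.

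Per length of shared region, the Hox9 genes and Hoxd12 had higher values than the Hox13 genes in progenitor-like nuclei, though not all beyond counting error. Hoxc12 and Hoxd13 have no shared region and are left out, and Hoxc9 rests on a region at its 3′ end. Levels are given in CPM, counts scaled to the same total in the shared regions of each class and library. Per kb of peak, Enl-WT progenitor-like nuclei had 26.4 CPM for Hoxb9, 25.1 for Hoxd9, 18.4 for Hoxa9 and 17.2 for Hoxc9. Among the more 5′ genes the level per kb was 21.6 for Hoxd12, 9.07 for Hoxc13, 7.19 for Hoxa13 and 4.99 for Hoxb13. The order in Enl-T1, again per kb, was Hoxb9 (41.2), Hoxd12 (30.1), Hoxd9 (27.0), Hoxa9 (25.6), Hoxc9 (17.1), Hoxa13 (15.7), Hoxc13 (10.5) and Hoxb13 (6.02). By these values Hoxa13 lay below Hoxc13 in Enl-WT, where their counting intervals per kb overlap, and above it in Enl-T1. The intervals of Hoxc9 and Hoxa13 in Enl-T1 overlap as well. Called peaks were wider in Enl-WT, where the Hox9 regions covered 9051 bp against 7471 bp in Enl-T1, so levels per kb are set partly by the calling.

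Each Hox gene had its own order of cell classes, plotted with its intervals in the panels of levels by class. Immune-like nuclei, whose lineage is not of kidney origin, had the lowest Hox9 sum in both libraries. It was 46.2 CPM (95% Poisson interval 28.4 to 71.0) for Enl-WT and 40.0 (24.4 to 61.8) for Enl-T1, at median depths of 10386 and 6396 counts. Ureteric epithelium-like nuclei came next in Enl-WT at 111 CPM (103 to 119), and had 99.0 (92.4 to 106) in Enl-T1. Erythroid-like nuclei, with 64 in Enl-T1 and too few in Enl-WT, had 63.4 CPM (33.3 to 110) there, an interval that overlaps both the immune-like and the ureteric epithelium-like level.

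**Figure D2:**
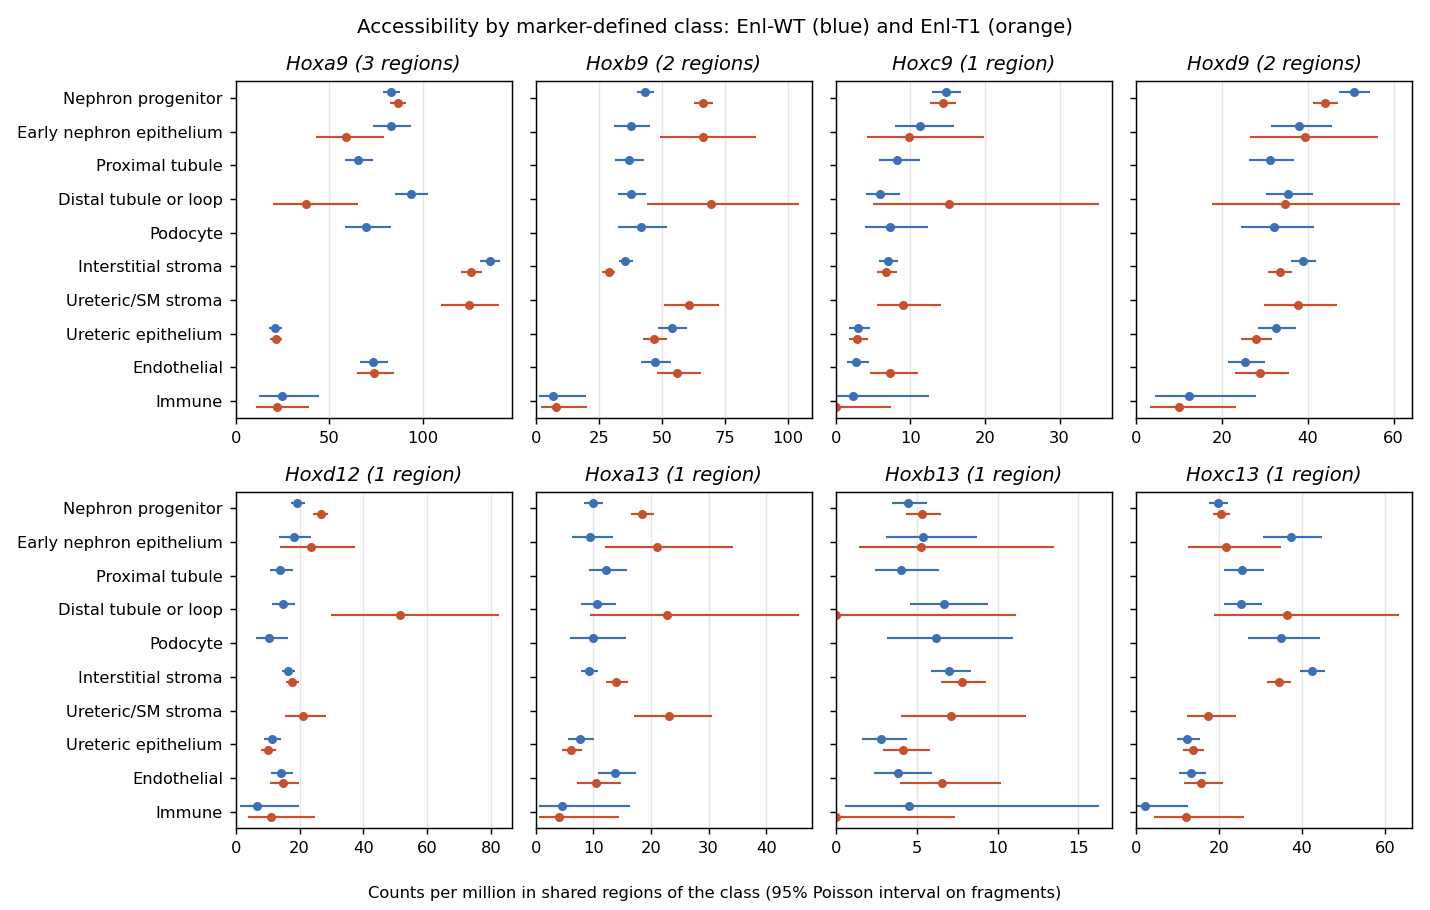
Summed level of each gene's shared regions (x axis, CPM; number of regions in the title) in marker-defined classes with at least 50 nuclei other than erythroid-like, for Enl-WT (blue) and Enl-T1 (orange), with 95% Poisson intervals on fragments. Hoxa9 and Hoxc13 are highest in interstitial stroma-like nuclei of Enl-WT at 136 and 42.5 CPM, and the wide orange bars are classes of few Enl-T1 nuclei.

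Hoxa9 was led by stroma. Its level in Enl-WT was 136 CPM (130 to 141) in interstitial stroma-like, 93.8 (85.4 to 103) in distal tubule or loop-like and 83.2 (78.7 to 87.9) in progenitor-like nuclei. Early nephron epithelium-like, endothelial-like, podocyte-like and proximal tubule-like nuclei followed at 83.1, 73.7, 69.9 and 65.7 CPM, each overlapping its neighbour. Ureteric epithelium-like nuclei had 21.1 CPM (17.7 to 24.9), within the interval of the immune-like level of 24.8 (12.4 to 44.3).

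Hoxb9 in Enl-WT was highest in ureteric epithelium-like nuclei at 54.1 CPM (48.6 to 60.1), overlapped by endothelial-like nuclei at 47.3 (41.6 to 53.6). It was lowest, immune-like nuclei aside, in interstitial stroma-like nuclei at 35.5 (32.9 to 38.4). Proximal tubule-like (36.9), early nephron epithelium-like (37.7) and distal tubule or loop-like nuclei (37.9) overlapped that level. Progenitor-like (43.5) and podocyte-like nuclei (41.6) lay between, with overlapping intervals. In Enl-T1 the progenitor-like level of 66.5 CPM (62.9 to 70.3) was above the ureteric epithelium-like level of 46.9 (42.4 to 51.9).

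The shared region of Hoxc9 and the sum of Hoxd9 were led by the progenitor-like class. The shared Hoxc9 region at the 3′ end had 14.8 CPM (12.9 to 16.8) there in Enl-WT, against 11.3 (7.86 to 15.8) in early nephron epithelium-like, 8.17 (5.74 to 11.3) in proximal tubule-like and 6.99 (5.83 to 8.31) in interstitial stroma-like nuclei. Hoxd9 had 50.9 CPM (47.4 to 54.6) in progenitor-like, 38.9 (36.1 to 41.9) in interstitial stroma-like and 25.5 (21.3 to 30.1) in endothelial-like nuclei. Over all 4 of its Enl-WT peaks, Hoxc9 had 67.1 CPM (58.2 to 76.9) in early nephron epithelium-like, 64.8 (60.9 to 69.0) in progenitor-like and 61.1 (54.1 to 68.8) in proximal tubule-like nuclei, which overlap.

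Among the more 5′ genes in Enl-WT, Hoxc13 was highest in interstitial stroma-like and Hoxa13 in endothelial-like nuclei. Hoxc13 had 42.5 CPM (39.5 to 45.6) in interstitial stroma-like nuclei, overlapped by 37.2 (30.7 to 44.7) in early nephron epithelium-like and 34.8 (26.8 to 44.4) in podocyte-like nuclei, and 19.8 (17.6 to 22.1) in progenitor-like nuclei. Hoxa13 in Enl-WT ran from 13.8 CPM (10.8 to 17.3) in endothelial-like to 7.61 (5.64 to 10.1) in ureteric epithelium-like nuclei, immune-like nuclei aside, and neighbours in this order overlapped. Hoxb13 ran from 7.02 CPM (5.85 to 8.34) in interstitial stroma-like to 2.77 (1.64 to 4.37) in ureteric epithelium-like nuclei. Hoxd12, by its shared region upstream, had 19.3 CPM (17.2 to 21.7) in progenitor-like nuclei, overlapped by 18.2 (13.7 to 23.7) in early nephron epithelium-like and 16.5 (14.7 to 18.4) in interstitial stroma-like nuclei. Its lowest level, immune-like nuclei aside, was 10.5 (6.39 to 16.3) in podocyte-like nuclei. In Enl-T1, Hoxa13 had 23.1 CPM (17.1 to 30.6) in ureteric or smooth muscle stroma-like nuclei. It had 6.09 (4.53 to 8.02) there in ureteric epithelium-like nuclei, an interval that does not overlap the first.

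The genes outside the Hox clusters whose levels ran most like the sum of the Hox9 genes over 18 pairs of class and library were Gm29683, Fam155a and Evc (Pearson r = 0.95 for each). For the sum of the Hox12 and Hox13 genes they were Gm48447 (0.96), Gm29230 (0.94) and Gm42498 (0.93). These are descriptions over points that share their library and its depth, and the classes with few nuclei weigh as much as the others.

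The main comparison asked whether open chromatin at these genes differed between mutant and control in the cells where the Cre acts. In progenitor-like nuclei the Hox12 and Hox13 genes together had 53.5 CPM (49.9 to 57.3) for Enl-WT and 70.8 (67.1 to 74.7) for Enl-T1. The log2 ratio of Enl-T1 over Enl-WT was 0.40 (95% interval 0.28 to 0.53). The Hox9 genes together had 192 CPM (185 to 199) against 212 (205 to 218), a log2 ratio of 0.14 (0.07 to 0.21). Over the shared regions both sums were higher in Enl-T1, and the interval of the Hox12 and Hox13 ratio lay above that of Hox9. The group sums leave out every region with a peak in 1 library, and with them all of Hoxc12 and Hoxd13. When all own peaks were counted, progenitor-like Hoxc9 rose from 14.8 to 64.8 CPM for Enl-WT. Hoxb9 likewise rose from 66.5 to 93.7 CPM for Enl-T1. Levels outside a library's own peaks are unknown, so the direction over whole genes was not tested.

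Where progenitor-like nuclei of both libraries fell into 1 cluster, the ratios were below 0 with intervals that span it. In cluster 4, the only such cluster with at least 50 nuclei of each library, the Hox9 ratio was −0.07 (−0.42 to 0.26) and the Hox12 and Hox13 ratio −0.18 (−0.94 to 0.49), a comparison chosen after seeing the data that rests on 90 Enl-T1 nuclei. In early nephron epithelium-like nuclei the ratios were 0.04 (−0.25 to 0.32) and 0.03 (−0.43 to 0.47). Placing each nucleus by its own markers gave −0.04 for Hox9. Other random seeds of the clustering left both progenitor-like ratios above 0, at 0.09 to 0.16 and 0.34 to 0.41.

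In stroma-like nuclei the ratios were near 0 or below it. This class too drew on different clusters, since interstitial cluster 9 held 1 Enl-WT and 1042 Enl-T1 nuclei and cluster 5 held 979 and 324, so cluster and genotype cannot be told apart in its sums. The Hox9 genes had 217 CPM (210 to 223) against 199 (193 to 206) in Enl-T1, for a log2 ratio of −0.12 (−0.18 to −0.05). The Hox12 and Hox13 genes had 75.0 (71.1 to 79.0) against 73.2 (69.3 to 77.3), a log2 ratio of −0.03 (−0.14 to 0.08). Within interstitial clusters 1, 2, 5 and 7, which hold both libraries, the Hox9 ratio ran from −0.22 to −0.12 and the Hox12 and Hox13 ratio from −0.13 to 0.26. In ureteric epithelium-like nuclei, where this Cre does not act, the Hox9 ratio was −0.16 (−0.31 to −0.01) and the Hox12 and Hox13 sums were 34.14 and 34.03 CPM. In endothelial-like nuclei the ratios were 0.16 (−0.01 to 0.32) and 0.07 (−0.24 to 0.38), which other scalings lowered by 0.15 to 0.17.

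Of the 8 genes with a shared region, 2 were higher in Enl-T1 progenitor-like nuclei by a log2 ratio of 0.5 or more and 0 were lower by as much, where 4.44% and 5.24% of 24572 genes with at least 200 counts were. The 2 genes were Hoxa13 and Hoxb9, of which Hoxb9 came to 0.45 with a naming lead of 0.2, where cluster 0 is unnamed, and 0.46 with fewer clustering components. The median over the 8 was 0.16, against 0.01 over all genes. In stroma-like nuclei 1 of the 8, again Hoxa13, was higher and 0 were lower, where 3.1% and 2.49% of 24448 genes were.

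Hoxa13, which patterns the limb tips and the urogenital tract, had the highest ratio of the 8. Its only region, chr6:52260010-52261391 (mm10), spans the start site and the first exon and also lies in the window of the noncoding gene Hottip. In progenitor-like nuclei it had 303 counts or 9.94 CPM (8.42 to 11.7) in Enl-WT, and 705 counts or 18.4 CPM (16.6 to 20.5) in Enl-T1. The intervals did not overlap, and the log2 ratio was 0.89 (0.61 to 1.18). In stroma-like nuclei it had 9.27 CPM (7.93 to 10.8) against 15.0 (13.3 to 16.9), a log2 ratio of 0.70 (0.42 to 0.98). In ureteric epithelium-like nuclei it had 7.61 and 6.09 CPM, and the ratio of −0.32 (−0.92 to 0.27) did not differ from 0 beyond counting error.

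The higher Hoxa13 level was present in both progenitor-like clusters that hold most Enl-T1 nuclei. It was 17.6 CPM (15.3 to 20.1) in cluster 0 and 21.1 (17.6 to 25.1) in cluster 6, against 10.4 (8.37 to 12.8) and 9.34 (7.14 to 11.998) for Enl-WT nuclei in clusters 4 and 10. The 90 Enl-T1 nuclei inside cluster 4 had 12.4 CPM (4.01 to 28.8), which overlaps every one of these. In early nephron epithelium-like nuclei Hoxa13 had 9.35 CPM (6.24 to 13.5) from 57 counts for Enl-WT and 21.04 (12.03 to 34.2) from 32 counts for Enl-T1, a log2 ratio of 1.17 (0.19 to 2.103). The Enl-T1 ureteric or smooth muscle stroma-like nuclei, at 23.1 CPM (17.1 to 30.6), were above the interstitial ones at 13.98 (12.2 to 15.9), and the interstitial ratio alone was 0.59 (0.30 to 0.89). Within the interstitial clusters with both libraries the Hoxa13 ratio was 0.60 (0.03 to 1.17) in cluster 1, 0.83 (0.18 to 1.51) in cluster 2, 0.68 (−0.18 to 1.61) in cluster 7 and −0.15 (−1.14 to 0.72) in cluster 5.

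Per nucleus the direction was the same. At least 1 count in the Hoxa13 region was found in 6.67% of Enl-WT and 8.32% of Enl-T1 progenitor-like nuclei, although Enl-WT nuclei were deeper. After each nucleus was thinned to 5000 counts, which left 2139 and 3928 nuclei, the shares were 2.095% and 4.20%. Immune-like nuclei had thinned shares of 0.934% and 0.378%. Of 3962 regions with at least 70% GC, 1.34% were higher by 0.5 or more in progenitor-like nuclei, and of all 75400 regions 13% were. Hoxa13 was singled out by its ratio, and the regions were not matched to it in counts, so these shares are no test of it.

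Hoxb9 was higher at its start site and not upstream of it. Hoxb9 is a posterior trunk patterning gene that also acts in the ribs with its paralogues. Its start-site region, chr11:96270695-96271586, had 928 counts or 30.4 CPM (27.7 to 33.3) in Enl-WT progenitor-like nuclei. Enl-T1 progenitor-like nuclei had 2080 counts or 54.4 CPM (51.2 to 57.8), a log2 ratio of 0.84 (0.68 to 1.00). The upstream region, chr11:96269565-96270389, had 13.0 CPM (11.3 to 15.0) against 12.1 (10.6 to 13.7), a ratio of −0.11 (−0.39 to 0.17). The intervals of the 2 ratios did not overlap.

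The direction at the Hoxb9 start site depended on the class. In interstitial stroma-like nuclei it had 23.4 CPM (21.2 to 25.7) against 18.1 (16.1 to 20.3) in Enl-T1, for a log2 ratio of −0.37 (−0.59 to −0.15). In ureteric epithelium-like nuclei it had 41.2 and 35.1 CPM, a ratio of −0.23 (−0.48 to 0.01). The Enl-T1 ureteric or smooth muscle stroma-like nuclei had 46.9 CPM (38.1 to 57.1). The progenitor-like ratio thus stood apart from those of the interstitial stroma and the ureteric epithelium, but not from those of every class. For the whole gene the ratio was 0.88 (0.18 to 1.51) in distal tubule or loop-like nuclei, from 46 Enl-T1 counts. It was 0.25 (−0.04 to 0.54) in endothelial-like nuclei, where this Cre does not act.

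Within the progenitor-like class the Hoxb9 start site had 56.7 CPM (52.6 to 61.0) in cluster 0 and 51.3 (45.8 to 57.4) in cluster 6, both of Enl-T1. Enl-WT nuclei had 34.5 (30.7 to 38.6) in cluster 4 and 25.1 (21.4 to 29.3) in cluster 10. The 90 Enl-T1 nuclei of cluster 4 had 39.5 CPM (22.6 to 64.2), and the ratio there was 0.20 (−0.63 to 0.92). For the whole gene, whose upstream region had 0 counts in these 90 nuclei, the ratio in cluster 4 was −0.29 (−1.11 to 0.43). In early nephron epithelium-like nuclei the gene had 37.7 CPM (31.1 to 45.3) against 66.4 (49.4 to 87.4) in Enl-T1, for a log2 ratio of 0.82 (0.31 to 1.31).

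The share of progenitor-like nuclei with a count at the Hoxb9 start site was 19.7% for Enl-WT and 22.6% for Enl-T1. After thinning the shares were 6.69% and 12.1%. Among immune-like nuclei 0 of 99 in Enl-WT had a count, which allows a share of up to 3.03%, and 1.84% of 163 had one in Enl-T1.

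**Figure D3:**
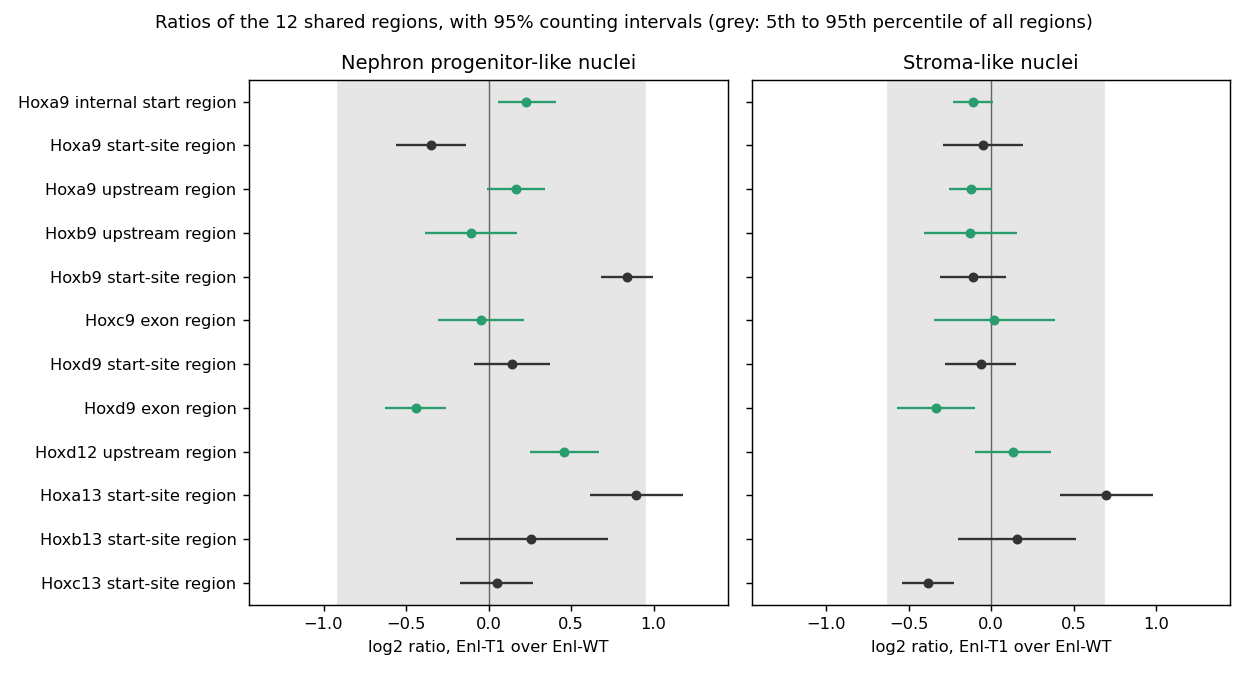
Log2 ratio of Enl-T1 over Enl-WT (x axis) for the 12 shared regions in progenitor-like (left) and stroma-like nuclei (right), with 95% counting intervals. Black points are regions over the annotated gene start, green points other regions, and the grey band spans the 5th to the 95th percentile of all regions. Hoxb9 and Hoxa13 lie farthest to the right in progenitor-like nuclei, at 0.84 and 0.89, inside the band.

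Of the 12 shared regions, all with at least 200 counts in progenitor-like nuclei, 2 were higher by 0.5 or more and 0 were lower. Over 75400 regions 13% were higher and 14.9% lower, so 2 of 12 is near that share. In stroma-like nuclei 1 of 12 was higher and 0 lower, where 9.91% and 8.22% of 76763 regions were.

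Hoxd12 was higher in progenitor-like nuclei at its upstream region, which is the stretch with the CTCF core match shown above. Hoxd12 belongs to the group of Hoxd genes that shape the digits. The region, chr2:74672669-74673586, had 589 counts or 19.3 CPM (17.2 to 21.7) for Enl-WT and 1016 counts or 26.6 CPM (24.3 to 29.0) for Enl-T1, a log2 ratio of 0.46 (0.25 to 0.67). In stroma-like nuclei the values were 16.5 and 18.1 CPM, a ratio of 0.13 (−0.10 to 0.36). In the distal tubule or loop-like class the ratio was 1.81 (0.95 to 2.59), from 143 Enl-WT and 34 Enl-T1 counts. In cluster 4 it was −1.11 (−3.18 to 0.36).

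Ratios differed between the regions of Hoxa9 and between those of Hoxd9. Hoxa9 is a posterior patterning gene that is also known for its part in leukaemias with fusions of KMT2A. In progenitor-like nuclei the region at the Hoxa9 gene start, chr6:52230243-52231272, had 24.2 CPM (21.8 to 26.8) against 19.0 (17.1 to 21.1) in Enl-T1, for a log2 ratio of −0.35 (−0.56 to −0.14). This region also lies in the windows of Hoxa10 and Mir196b. The region at an internal start of Hoxa9, chr6:52225918-52227065, had 29.6 (26.9 to 32.4) against 34.7 CPM (32.1 to 37.4), a ratio of 0.23 (0.05 to 0.41). The upstream region, chr6:52233060-52235495, which touches the 2 kb window only by its edge and also belongs to Hoxa10, had 29.4 and 33.0 CPM, a ratio of 0.17 (−0.01 to 0.34). The gene sum came to 0.06 (−0.05 to 0.17). These regions were narrower in Enl-T1, where the gene-start peak spans 857 bp against 1030 bp. Per kb of own peaks the gene-start level was 23.5 CPM for Enl-WT against 22.2 for Enl-T1, and the gene sum had a ratio of 0.47 (0.37 to 0.58).

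In stroma-like nuclei the Hoxa9 sum was 136 CPM (131 to 141) in Enl-WT, against 126 (121 to 131) in Enl-T1, a ratio of −0.11 (−0.19 to −0.03). Its internal region had the highest CPM of the 12 in that class, at 62.7 and 58.1. In ureteric epithelium-like nuclei Hoxa9 had 21.1 and 21.4 CPM.

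Hoxd9 is a posterior patterning gene of the trunk and limb. Its start-site region, chr2:74697122-74698107, had 17.9 CPM (15.9 to 20.2) against 19.8 (17.8 to 21.9) in Enl-T1 progenitor-like nuclei, a ratio of 0.14 (−0.09 to 0.37). The region over its exons and intron, chr2:74698155-74699483, had 32.9 CPM (30.1 to 36.0) against 24.3 (22.1 to 26.6), a ratio of −0.44 (−0.63 to −0.26), and −0.33 (−0.57 to −0.10) in stroma-like nuclei. This region is 1 of the peaks that were narrower in Enl-T1, and the gene sum of −0.21 (−0.35 to −0.07) turned to 0.11 when counts were divided by the width of each library's own peaks.

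Hoxc13, a gene known for hair and nail formation, was lower in the stroma-like class as a whole. Its region, chr15:102920372-102922642, had 1559 counts or 42.3 CPM (39.4 to 45.3) in Enl-WT stroma-like nuclei. Enl-T1 stroma-like nuclei had 1169 counts or 32.4 CPM (29.8 to 35.1), a log2 ratio of −0.38 (−0.54 to −0.23). In interstitial stroma-like nuclei alone the ratio was −0.31 (−0.47 to −0.15). In each of the 4 interstitial clusters with both libraries the interval spanned 0, at −0.26 (−0.55 to 0.02) in cluster 1, 0.18 (−0.22 to 0.59) in cluster 2, −0.17 (−0.59 to 0.23) in cluster 5 and −0.36 (−0.85 to 0.14) in cluster 7. In progenitor-like nuclei Hoxc13 had 19.8 and 20.5 CPM, a ratio of 0.05 (−0.17 to 0.27). Enl-T1 had a pair of peaks of 1136 and 822 bp where Enl-WT had a single wider one of 2181 bp, so Enl-T1 cuts between the pair were not counted. Over the alternatives of processing, the stroma-like ratio of Hoxc13 ran from −0.57 to −0.23.

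The Hoxb13 and Hoxc9 ratios in progenitor-like nuclei could not be told from 0. Hoxb13, known for the prostate and the tail end of the body axis, had 136 counts or 4.46 CPM (3.46 to 5.66) in Enl-WT progenitor-like nuclei. In Enl-T1 it had 204 counts or 5.34 CPM (4.35 to 6.48), a ratio of 0.26 (−0.20 to 0.72). The shared Hoxc9 region, chr15:102984651-102985528, had 14.8 and 14.3 CPM in progenitor-like nuclei, a ratio of −0.05 (−0.30 to 0.22). In endothelial-like nuclei, where this Cre does not act, it had 28 counts or 2.64 CPM (1.44 to 4.43) against 43 counts or 7.23 CPM (4.51 to 10.99), a ratio of 1.454 (0.42 to 2.54). The Hoxb13 interval still allows a change of the size seen for Hoxd12.

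The regions with a peak in 1 library have no count in the other table and give no ratio. Absence of a row is not a level of 0, since neither table counts reads outside its own peaks. Whether the tables used here hold every peak called in each library is also unknown, which bears on each peak given as present in 1 library and on the shares below. Over all peaks, 30% of those in Enl-WT and 13.4% of those in Enl-T1 had no overlapping peak in the other library. For the 10 genes these shares were 6 of 18 and 3 of 15 peaks.

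Outside the Hox genes, peaks with at least 1000 counts were seldom without a partner. Of Enl-WT peaks with at least 1000 counts, 5 of 16 at the 10 genes and 14 of 80 at all Hox genes (17.5%) had none, against 2.13% of 30748 outside the Hox genes. In Enl-T1 the figures were 2 of 11, 5 of 70 (7.14%) and 0.741% of 24966. Of all peaks in the range of the Hoxc12 peak (500 to 1000 counts in Enl-WT) and of the smaller Hoxc13 peak (below 500 in Enl-T1), 13.8% and 22.0% had no partner. The cut of 1000 counts was not part of the planned comparisons. Why these peaks lacked a partner was not tested.

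At Hoxd12 each library had its own peak over the gene. The start-site peak, chr2:74674673-74675511, was present in the Enl-T1 table with 2373 counts, more than 92.7% of that library's peaks. It had 37.7 CPM (35.0 to 40.6) in progenitor-like, 35.7 (28.1 to 44.8) in ureteric or smooth muscle stroma-like and 13.0 (11.3 to 14.9) in interstitial stroma-like nuclei. The Enl-WT table instead had chr2:74676528-74677615 over the second exon, 1016 bp away and also in the window of Hoxd11, with 35.4 CPM (32.5 to 38.5) in progenitor-like and 11.2 (9.70 to 12.8) in interstitial stroma-like nuclei. Both peaks were far less open in ureteric epithelium-like nuclei, at 6.88 CPM (5.21 to 8.91) and 3.23 (2.00 to 4.94).

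At Hoxb9 the Enl-T1 table had a further peak in the intron, chr11:96272130-96272944, 560 bp from the start-site peak of Enl-WT. It had 27.2 CPM (24.9 to 29.6) in progenitor-like, 33.8 (26.4 to 42.7) in ureteric or smooth muscle stroma-like and 16.3 (14.4 to 18.4) in interstitial stroma-like nuclei. Of the genes with a start site in a shared region, Hoxb9 thus had both a higher start-site level in progenitor-like nuclei and an added peak in Enl-T1.

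At Hoxc9 the Enl-WT table had 3 peaks with no partner, which all lie in the long annotated span of Hoxc5 as well. In progenitor-like nuclei the start-site peak, chr15:102975545-102976522, had 12.8 CPM, the peak at an internal start, chr15:102976864-102977987, had 18.1, and the exon peak, chr15:102980842-102982145, had 19.1 CPM. Interstitial stroma-like nuclei had 21.4 CPM (19.3 to 23.6) in the last, and ureteric epithelium-like nuclei had 4.15. The nearest Enl-T1 peaks lay 2960, 4279 and 2548 bp away.

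Hoxd13 and Hoxc12 had a peak in Enl-WT only. Hoxd13, a digit and genital patterning gene, had its start-site peak at chr2:74667769-74668935 with 1389 counts, at 14.7 CPM (13.0 to 16.5) in stroma-like and 10.5 (8.97 to 12.3) in progenitor-like nuclei. The Hoxc12 peak, chr15:102934641-102935477 upstream of the gene, had 550 counts, at 5.56 CPM (4.53 to 6.74) in stroma-like and 3.48 (2.61 to 4.55) in progenitor-like nuclei. The remaining Enl-T1 peak, in the last exon of Hoxc13 at chr15:102926914-102927851, had 413 counts and 4.68 CPM (3.76 to 5.76) in progenitor-like nuclei.

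**Figure D4:**
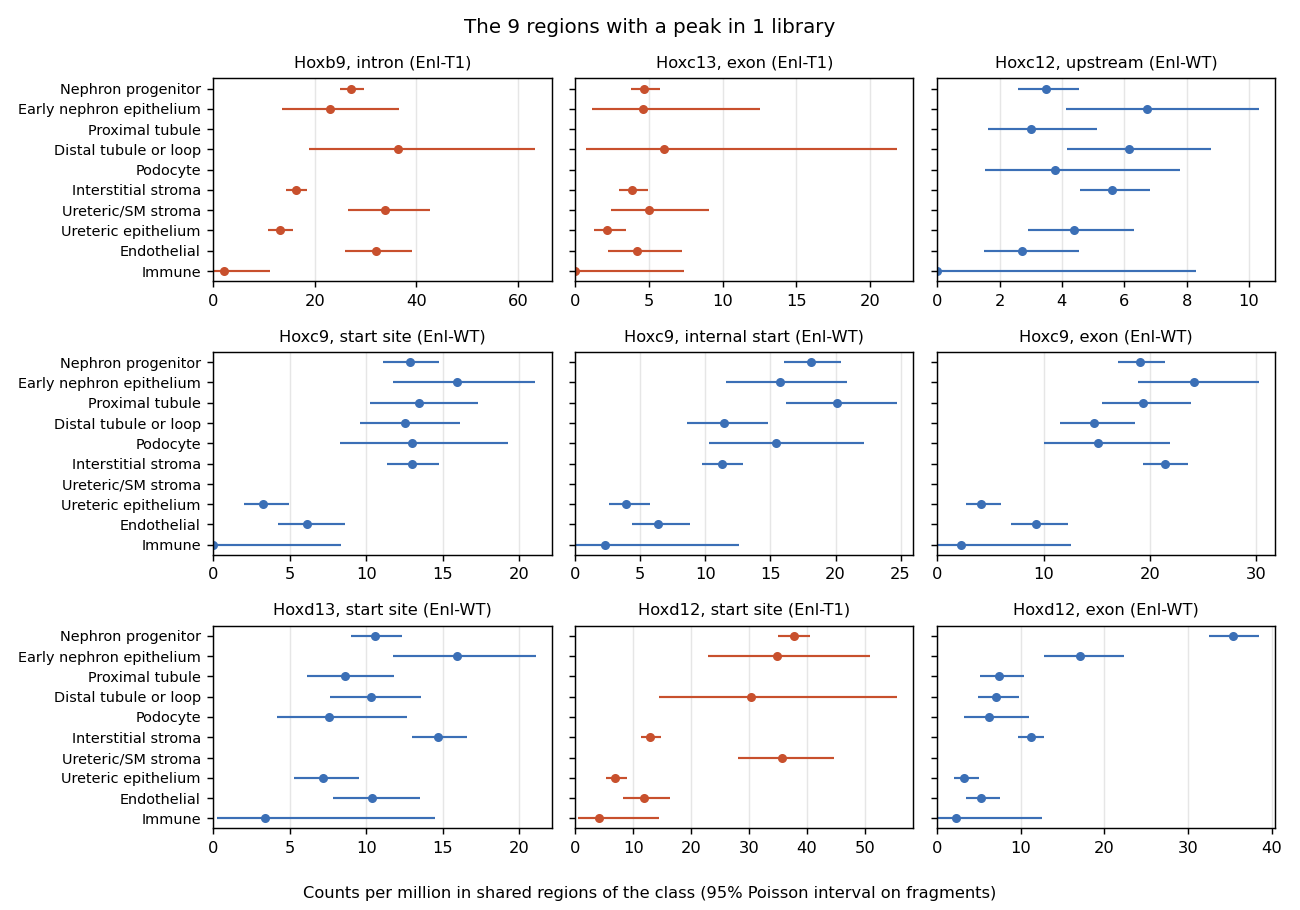
Level (x axis, CPM with 95% Poisson interval on fragments) by class of the 9 regions with a peak in 1 library, blue for Enl-WT and orange for Enl-T1. The Hoxd12 peaks are high in progenitor-like nuclei at 37.7 and 35.4 CPM, and the Hoxc9 peaks are lower in ureteric epithelium than in the progenitors and the stroma.

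The other Hox genes were spread about the same centre. Of the 27 with a shared region in progenitor-like nuclei, 4 were higher by 0.5 or more, 3 were lower and the median was 0.11, beside the 4.44% and 5.24% over all genes. The highest were Hoxa5 at 0.87 (0.61 to 1.15) and Hoxa4 at 0.63 (0.50 to 0.76), anterior genes of the same cluster as Hoxa13. The lowest were Hoxb7 and Hoxb8, both −0.90 (−1.08 to −0.73), which share the region that gives this value, so that the 3 lower genes rest on 2 values, and lie near Hoxb9 in the Hoxb cluster. In stroma-like nuclei 2 were higher and 0 lower, with a median of 0.04.

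Of the 9 Hox partner genes of the Pbx, Meis and Pknox families, which bind DNA together with Hox proteins, 0 passed 0.5 in either direction in progenitor-like or stroma-like nuclei. The highest ratio in progenitor-like nuclei was 0.47 (0.39 to 0.55) for Pbx3. Of 20 genes for chromatin regulators of Hox loci, 0 passed 0.5 in these classes, where shares of a few percent over all genes make 0 of so few genes no result about them. The range in progenitor-like nuclei was −0.33 for the Polycomb gene Pcgf2 to 0.32 for Mllt3, the paralogue of Enl. Mllt1 itself had 57.7 and 61.4 CPM in progenitor-like nuclei.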

How the data were processed

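Reads of each library were aligned by the authors to mm10 and counted with Cell Ranger ATAC 2.1.0, which called peaks and barcodes separately per library. The deposited matrices hold raw counts of transposase cuts per peak and barcode. Most counts were even, so 2 counts stand for about 1 fragment, and intervals were computed on counts divided by 2. The authors' own filters on fragments per nucleus, share in peaks, blacklist ratio and start-site enrichment were replaced here by a total of 2000 to 100000 counts, and doublets were kept.

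The 10 genes and all lists were chosen with earlier results of these data known. Peaks of both libraries that overlapped by at least 1 bp formed a shared region, and levels (CPM) are counts scaled to the total in shared regions of that class and library. Nuclei were clustered on shared regions outside the Hox clusters (latent semantic indexing components 2 to 30, 15 neighbours, Leiden resolution 1) and each cluster was named from fixed markers with a scoring rule taken from earlier work on these data. With 1 library per group no test was run. Log2 ratios carry exact conditional binomial (Clopper-Pearson) 95% intervals and levels exact Poisson 95% intervals. Both cover counting error only, since each group has 1 library. Genes and regions needed at least 200 counts over both libraries in a class to enter a count past 0.5. For shares of nuclei, each was thinned to 5000 counts and shallower nuclei were left out.

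All 10 genes were named, with the 2 highest and 2 lowest of the other Hox genes in progenitor-like nuclei and the 3 genes of highest Pearson r on log2(CPM + 1) for each group. A gene and a sequence that these rules or later choices named are not reported here. The scripts were tested on simulated data. Cluster membership shifted with rounding between computers, so numpy was held to its basic instructions and 5 other seeds were tried, an alternative added after seeing the data. Other alternatives varied the barcode filter, scaling, choice of regions, clustering, naming and doublets. Values came from Python 3.11.15 with numpy 2.4.6, scipy 1.17.1, scikit-learn 1.9.0, igraph 0.11.9, leidenalg 0.10.2 and matplotlib 3.10.9, and from R 4.3.3 with edgeR 4.0.16 and DESeq2 1.42.0 for scaling factors.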

Additional observations from a re-analysis of the deposited data

Results flagged for a closer look

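The following peaks lie outside the comparison of the libraries, since each has a peak in 1 table and none in the other as used here. In Enl-T1 they were the Hoxd12 start-site peak (2373 counts), the Hoxb9 intron peak (2253 counts) and the Hoxc13 last-exon peak (413 counts). In Enl-WT they were the 3 Hoxc9 peaks (1393, 1592 and 2103 counts), the Hoxd12 exon peak (1898 counts), the Hoxd13 start-site peak (1389 counts) and the Hoxc12 upstream peak (550 counts). Over all Enl-WT peaks the share with no partner was 13.8% at 500 to 1000 counts, 3.57% at 1000 to 2000 and 0.653% at 2000 to 4000, and over those of Enl-T1 it was 22.0% below 500 and 0.207% at 2000 to 4000. The level of each peak in the other library is unknown, so no difference was computed.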

How the results depend on the processing

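With 1 library per group there is no replicate check, and the number of nuclei limits the podocyte-like and tubule-like classes of Enl-T1 most (0, 14 and 77). No paired analysis was possible because each group has 1 library. In progenitor-like nuclei the Hox9 log2 ratio of 0.14 became 0.22 with the total of each library's own peaks, 0.28 with 80% reciprocal overlap, 0.32 with start-site regions, 0.23 with regions of 1 Hox gene, 0.22 by thinned shares, and turned to −0.037 with nuclei placed by their own markers. Of the alternatives chosen after seeing the data, it was 0.41 per kb of own peaks and −0.072 in cluster 4, the progenitor-like cluster with both libraries. The Hox12 and Hox13 ratio of 0.40 was 0.58 with 80% overlap and −0.18 in cluster 4. In stroma-like nuclei Hox9 (−0.12) was −0.049 with own-peak totals and turned to 0.0034 by thinned shares and 0.16 per kb, and Hox12 and Hox13 (−0.03) had 0.32 with 80% overlap and 0.091 per kb. In progenitor-like nuclei Hoxd9 turned from −0.21 to 0.14 with start-site regions and 0.11 per kb. Hoxa9 there (0.06) was −0.35 with 80% overlap, 0.23 with regions of 1 Hox gene and 0.47 per kb. In cluster 4, Hoxd9 turned to 0.045, Hoxb9 from 0.61 to −0.29 and Hoxd12 from 0.46 to −1.11, and Hoxa13 was 0.25. In stroma-like nuclei Hoxa9 turned to 0.017 by thinned shares and 0.30 per kb, and Hoxd9 to 0.13 per kb. The cause was not tested. Of 21 alternatives, Hoxa13 in progenitor-like nuclei kept its sign in 21 (0.25 to 1.12) and Hoxb9 in 20 (up to 0.84). Under 5 other seeds of the clustering no ratio of the sums in these classes turned or moved beyond its interval. Scaling by TMM or by medians of ratios moved ratios by at most 0.02 in progenitor-like and 0.04 in stroma-like nuclei.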
